A study of Rattus norvegicus with 18 samples.

Results

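Stress-inducible genes were followed in neonatal rat ventricular cardiomyocytes exposed briefly to a myosin II inhibitor: the polo-like kinase genes Plk2 (PLK2 in the table) and Plk3 (PLK3) and the growth arrest and DNA damage genes Gadd45a (GADD45A), Gadd45b (GADD45B) and Gadd45g (GADD45G). They were taken by name from a table of 28909 genes, and all 5 passed the filter on low values that left 15204 genes for testing. The set was selected on the CPM of the blebbistatin and DMSO libraries, whose values were known when it was proposed, so their difference between the groups is given as a description. No p-value is printed for any of the 5, and how many passed a threshold is given once, beside the share of all genes.

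The tested cells received 25 µM blebbistatin, an inhibitor of the myosin II ATPase, for 0.5 h, per the treatment label; the series' design text also gives another concentration. The control cells received the solvent DMSO for the same time. Both groups held ventricular cells of wild-type Sprague-Dawley (SD) rats aged 1 day, freed of quickly attaching cells by preplating and kept on collagen in low-serum medium, with 3 RNA libraries per group. Whether each library had its own cell preparation is not stated in the labels, so p-values measure the spread between libraries, which may be technical. The 12 H3K9me3 chromatin immunoprecipitation and input samples of the series are not analysed here.

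Polo-like kinases are serine and threonine kinases that carry a polo box, the domain that docks them to phosphorylated partners. Plk1 and Plk4 drive mitosis and centriole duplication, whereas Plk2 and Plk3 are known as early response and stress genes that growth factors and neuronal activity induce. The GADD45 genes encode small acidic proteins without enzyme activity. They bind other proteins, among them the kinase MAP3K4 upstream of p38 and JNK, the replication clamp PCNA, the cell cycle inhibitor p21 and the CDK1 and cyclin B1 complex, and they are also known for a part in DNA demethylation. Their transcripts are short-lived and are induced by DNA damage, cytokines and other stress.

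The values are CPM, a measure per total that the authors scaled to the same sum in every library. The smallest regular step between low values ran from 0.0158 to 0.0168 CPM, a difference of up to 6.05% between libraries. Relative depth differed by as much only if a step stands for the same number of reads in every library. What 1 read is worth is not settled by that step, and no counting interval is given. DMSO replicate 1 stood apart: on the first principal component, with 42.0% of the variance, it lay at -77.3 and the other 5 libraries between -3.07 and 34.7. As a check of the cell label, 14 measured cardiomyocyte markers summed to 32533 to 34804.5 CPM with blebbistatin and 32637 to 34969 CPM with DMSO. The 11 fibroblast markers summed to 33652 to 38108 CPM with blebbistatin and 33597 to 39054 CPM with DMSO, so the cultures held both kinds of transcript in quantity. Endothelial markers (9) summed to 119.8 to 129.6 CPM with blebbistatin and 127 to 129.6 CPM with DMSO. Smooth muscle and pericyte markers (8) summed to 3980.2 to 4259.6 CPM with blebbistatin and 3769 to 4237 CPM with DMSO. None of these markers was at 0 in all libraries. The sums do not show how single markers differed in DMSO replicate 1. Its mean log2 difference from the other 5 libraries was -0.43 over the cardiomyocyte markers and -0.11 over the fibroblast markers. It was 0.064 over the endothelial markers and 0.26 over the smooth muscle and pericyte markers. The difference was larger in size over macrophage and leukocyte markers (-0.99), red blood cell genes (1.27) and ribosomal protein genes (-1.07).

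Plk2 was lower in all 3 blebbistatin libraries than in any DMSO library, and it was the steadiest of the 5 genes. It was at 209, 216 and 214 CPM in blebbistatin replicates 1, 2 and 3, against 296, 363 and 359 CPM in DMSO replicates 1, 2 and 3. The groups did not overlap, and within the blebbistatin group the highest library was 1.03 times the lowest. Scaled means were 210.0 ± 5.95 CPM with blebbistatin and 343 ± 19.8 CPM with DMSO (SD, n = 3 each). The log2 fold change was -0.71 ± 0.12 (SE), a ratio of 0.613. In bulk RNA, fewer cells that express a gene and less RNA per cell cannot be told apart.

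Plk3 overlapped between the groups. It was at 13.6, 12.7 and 18.4 CPM with blebbistatin, against 11.8, 21.0 and 24.1 CPM with DMSO. DMSO replicates 2 and 3 were above every blebbistatin library, while DMSO replicate 1 was the lowest of all 6. Scaled means were 14.7 ± 2.98 CPM with blebbistatin and 19.0 ± 5.57 CPM with DMSO (SD, n = 3 each), a log2 fold change of -0.34 ± 0.26 (SE). In RefSeq's GRCr8 annotation Plk3 overlaps the dynein light chain gene Dynlt4 (TCTEX1D4 in the table), whose own row held at most 0.130 CPM in any library. No annotated gene overlaps Plk2.

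The promoters of both kinase genes are shown because Plk2 was the member whose groups were separate and Plk3, its closest relative here, overlapped. The 150 bases before the annotated start are given on the gene's strand, from RefSeq, build GRCr8, with chr2:43702386-43702535 (plus strand) for Plk2 and chr5:135848901-135849050 (minus strand) for Plk3. Capitals mark the cAMP response element TGACGTCA in Plk2 and its shorter core TGACG in Plk3.
Plk2: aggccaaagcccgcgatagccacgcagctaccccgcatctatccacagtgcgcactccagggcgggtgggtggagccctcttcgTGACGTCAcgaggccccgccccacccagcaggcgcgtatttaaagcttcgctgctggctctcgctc
Plk3: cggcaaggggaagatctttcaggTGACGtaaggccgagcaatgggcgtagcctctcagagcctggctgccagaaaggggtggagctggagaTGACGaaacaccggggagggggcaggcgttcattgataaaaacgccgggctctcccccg
Plk2 has the full element with its first base at -66 from the start, where 1.83% of 33469 rat promoters of 300 bases hold TGACGTCA on either strand. Plk3 has the core at -127 and at -59, and 21.2% of promoters hold TGACG on either strand; the core also lies within every full element. The AP-1 motif TGANTCA (7.33% of promoters) and the CArG box bound by SRF (1.64%) had no match within 250 bases before to 50 after the start of any of the 5 genes, which says nothing of sites elsewhere. Since the motifs were chosen after the promoters had been read, the shares do not measure how unusual a match is.

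**Figure D1:**
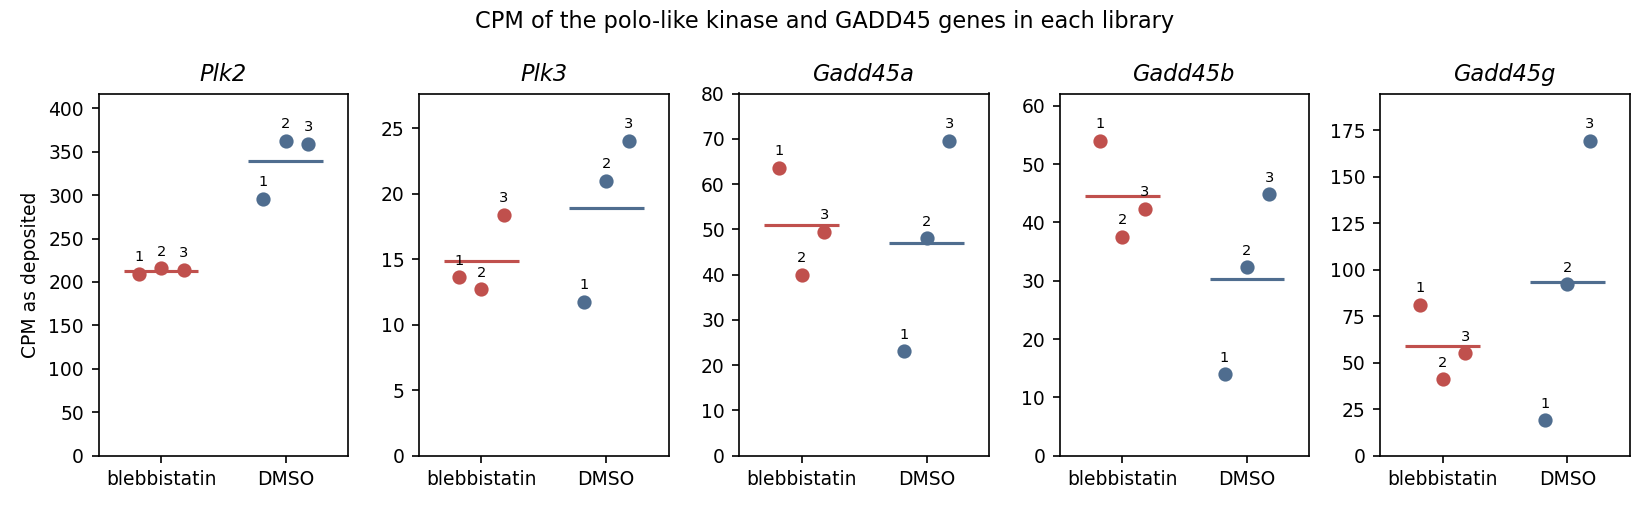
CPM as deposited of each gene in the 3 blebbistatin libraries (red, left) and the 3 DMSO libraries (blue, right); the number is the replicate and the line the group mean. Only for Plk2 do the groups not overlap, and DMSO replicate 1 is the lowest library for the other 4 genes.

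The 3 GADD45 genes varied more between libraries of 1 group than between the groups. Gadd45a, the DNA damage-inducible member, was at 63.7, 39.97 and 49.5 CPM with blebbistatin, against 23.1, 48.1 and 69.6 CPM with DMSO. The DMSO values enclosed the blebbistatin values on both sides. Scaled means were 50.2 ± 11.1 CPM with blebbistatin and 46.8 ± 21.5 CPM with DMSO (SD, n = 3 each), a log2 fold change of 0.19 ± 0.35 (SE). RefSeq places the non-coding RNA gene LOC100912188 over Gadd45a, and its reads are not analysed here.

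Gadd45b, the member known for its response to NF-kB and TGF-beta signals, was at 54.0, 37.5 and 42.3 CPM with blebbistatin, against 13.9, 32.3 and 44.8 CPM with DMSO. The groups overlapped, with DMSO replicate 3 above 2 of the blebbistatin libraries. Scaled means were 43.9 ± 7.78 CPM with blebbistatin and 30.3 ± 14.4 CPM with DMSO (SD, n = 3 each), a log2 fold change of 0.65 ± 0.37 (SE). It had the highest positive value of the 5 genes.

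Gadd45g, the cytokine-responsive member, had the widest spread. It was at 81.3, 41.1 and 55.2 CPM with blebbistatin, against 19.1, 92.1 and 169 CPM with DMSO. The DMSO libraries differed 8.87-fold from lowest to highest and the blebbistatin libraries 1.98-fold. Scaled means were 58.2 ± 19.3 CPM with blebbistatin and 92.4 ± 72.4 CPM with DMSO (SD, n = 3 each), a log2 fold change of -0.27 ± 0.75 (SE). No annotated gene overlaps Gadd45b or Gadd45g.

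The GADD45 promoters are shown because these 3 genes ran through the libraries in like order. They come from RefSeq, build GRCr8, minus strand: chr4:97486800-97486949 for Gadd45a, chr7:9430719-9430868 for Gadd45b and chr17:13530352-13530501 for Gadd45g. Capitals mark the octamer ATTTGCAT, the CCAAT box, the TATA box TATAAA and CGTCA, the reverse complement of the core TGACG.
Gadd45a: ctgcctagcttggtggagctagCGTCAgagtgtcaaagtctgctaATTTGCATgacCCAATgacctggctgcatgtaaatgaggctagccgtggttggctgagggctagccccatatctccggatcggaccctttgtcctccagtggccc
Gadd45b: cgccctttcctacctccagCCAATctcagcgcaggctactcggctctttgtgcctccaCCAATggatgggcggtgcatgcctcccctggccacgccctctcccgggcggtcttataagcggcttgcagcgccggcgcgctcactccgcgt
Gadd45g: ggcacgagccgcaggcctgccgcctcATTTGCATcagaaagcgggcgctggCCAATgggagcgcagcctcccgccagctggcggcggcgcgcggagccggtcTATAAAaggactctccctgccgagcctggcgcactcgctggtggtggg
Gadd45a and Gadd45g share the octamer, at -105 and -124, which 1.78% of promoters hold on either strand, and each has a CCAAT box after it, at -94 and -99 (37.5% of promoters). Gadd45b has 2 CCAAT boxes, at -131 and -92, and no octamer in this window. The E box CACGTG (6.42%) lies further out in Gadd45b and Gadd45g, at -178 and -163. Only Gadd45g has TATAAA (14.2%), with its first base at -48. The core TGACG or its reverse complement also occurs in Gadd45a, at -128, and across the start of Gadd45b, at -3. The GC box GGGCGG (33.1%) occurs in Plk2, Gadd45a and Gadd45b. The 5 promoters of 300 bases held 60.3 to 64.3% G and C, where the median of all promoters was 51.7%. The motifs were chosen after the promoters had been read, so these shares do not measure how unusual a match is. Each match is a description of these letters.

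Against the whole table, 0 of the 5 genes passed a limma adjusted p under 0.05, where 0.0197% of the 15204 genes did (0.00658% higher and 0.0132% lower with blebbistatin). At an unadjusted p under 0.05 there was 1 of the 5, against 1.51% of all genes (0.77% lower and 0.737% higher). Plk2 was also the 1 gene with all blebbistatin libraries below all DMSO libraries, as were 2.97% of all genes. The reverse, all blebbistatin libraries above all DMSO libraries, held for 0 of the 5 and 3.14% of all genes, so that 1 of the 5 and 6.12% of all genes had groups without overlap. Since the genes were picked with this contrast in view, nothing is read from these counts. Of the 15204 genes 2.04% had a lower log2 fold change than Plk2, and 97.4% had a larger residual spread. For Gadd45g 2.67% of genes had a larger residual spread, for Gadd45b 15.3% and for Gadd45a 16.3%.

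The GADD45 values moved when single libraries were left out, most with DMSO replicate 1 or 3. In DMSO replicate 1 the log2 level differed from the mean of DMSO replicates 2 and 3 by -2.56 for Gadd45g, -1.30 for Gadd45b, -1.18 for Gadd45a, -0.79 for Plk3 and -0.14 for Plk2. Across all genes tested this difference had a median of -0.0016, with 5% of genes below -1.37. Gadd45g lay among the lowest 0.901% of genes, Gadd45b among the lowest 5.58% and Gadd45a among the lowest 7.08%, while Plk2 was near the middle, with 40.8% of genes lower.

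**Figure D2:**
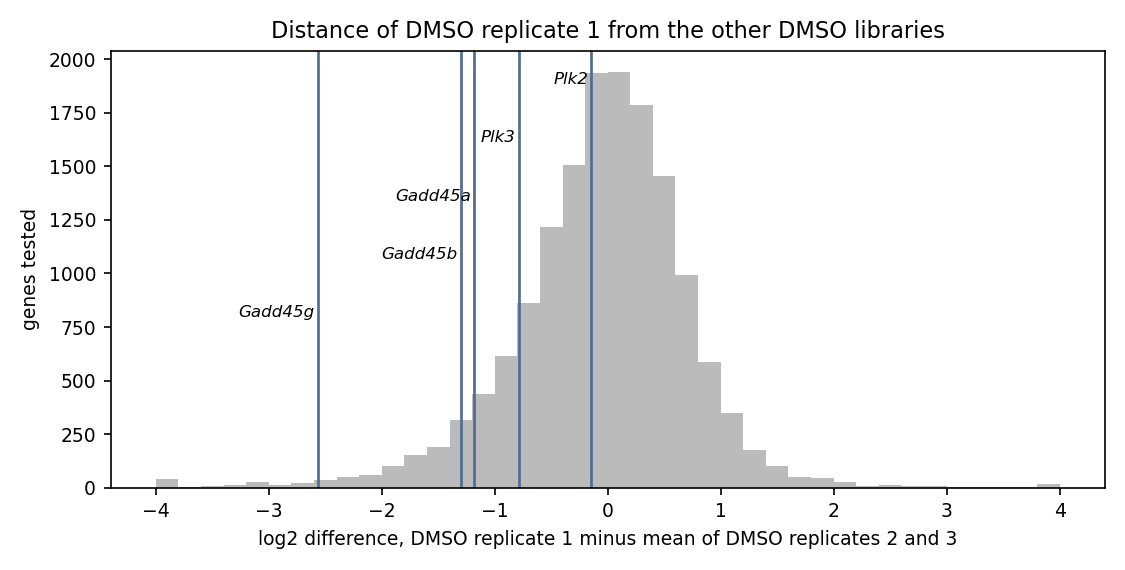
Histogram over the 15204 genes tested of the log2 level in DMSO replicate 1 minus the mean of DMSO replicates 2 and 3; the end bars hold all genes beyond -3.8 and 3.8, and blue lines mark the 5 genes. Gadd45g, at -2.56, lies in the lower tail, and Plk2, at -0.14, near the middle.

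Without DMSO replicate 1, Gadd45g had a log2 fold change of -1.13 ± 0.38, Plk2 one of -0.75 ± 0.10, Plk3 one of -0.60 ± 0.19, Gadd45a one of -0.20 ± 0.22 and Gadd45b one of 0.22 ± 0.19 (SE). The sign of Gadd45a turned, and Gadd45b was the 1 gene left with a positive value. All blebbistatin libraries then lay below both DMSO libraries for 3 of the 5 genes (Plk2, Plk3 and Gadd45g), where 6.05% of all genes did so, and above both for 0 of the 5, where 6.15% of all genes did so. As the genes were picked with this contrast in view, nothing is read from these counts either. Leaving out DMSO replicate 3 instead put Gadd45g at 0.37 and Gadd45a at 0.52. Blebbistatin libraries moved them as well. Gadd45g was at -0.52 without blebbistatin replicate 1 and at -0.049 without blebbistatin replicate 2. Gadd45a was at 0.029 without blebbistatin replicate 1 and at 0.34 without blebbistatin replicate 2. With any 1 of the 6 libraries left out, Plk2 stayed between -0.75 and -0.67, Plk3 between -0.60 and -0.16, and Gadd45b between 0.22 and 0.99.

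**Figure D3:**
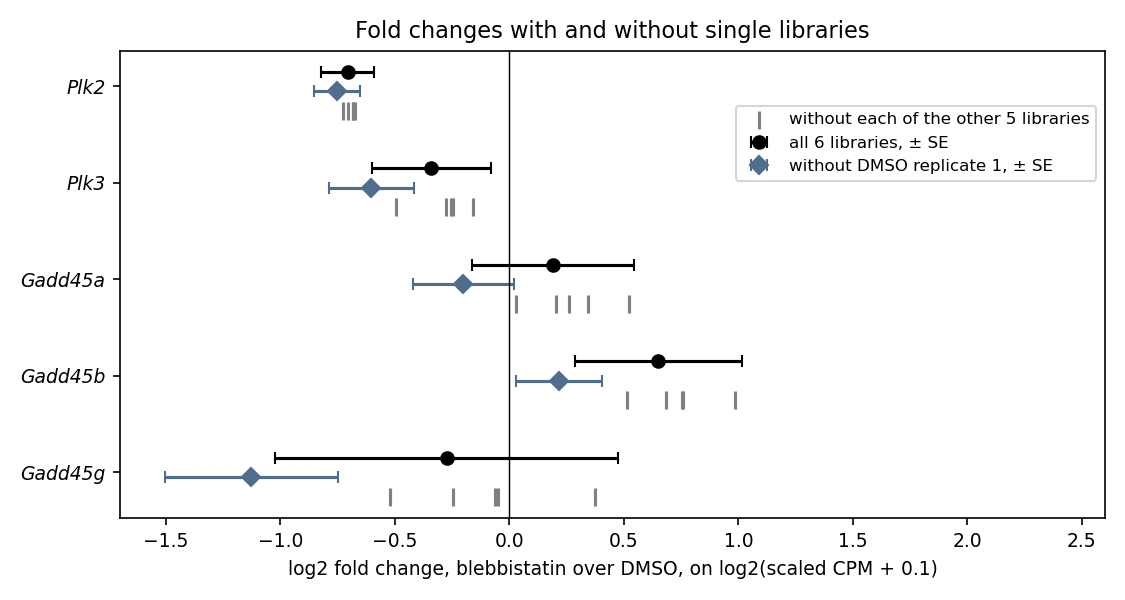
Log2 fold change of each gene, blebbistatin over DMSO, from all 6 libraries (black, ± SE), without DMSO replicate 1 (blue diamonds, ± SE) and without each of the other 5 libraries (grey ticks). Plk2 stays between -0.75 and -0.67, whereas Gadd45a and Gadd45g lie on both sides of 0.

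The order of the libraries was shared by several genes. Within the DMSO group Plk3 and all 3 GADD45 genes were lowest in replicate 1 and highest in replicate 3, and within the blebbistatin group the GADD45 genes were lowest in replicate 2 and highest in replicate 1. A list of 30 ribosomal protein genes had the same order, with sums of 17160.2, 12505 and 14583 CPM in blebbistatin replicates 1, 2 and 3 and 8611, 13330.1 and 17065 CPM in DMSO replicates 1, 2 and 3. The 10 measured macrophage and leukocyte markers summed to 164.5 to 186 CPM with blebbistatin and 87.9 to 182 CPM with DMSO, lowest in DMSO replicate 1. The 3 red blood cell genes summed to 26.3 to 31.1 CPM with blebbistatin and 28.5 to 72.0 CPM with DMSO, highest in DMSO replicate 1. The part of these differences between libraries in the GADD45 values was not tested.

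Genes with the most similar pattern were sought among 11407 named genes at 1 CPM or more, by Pearson's r of the log2 level over the 6 libraries, as a description with no p-value. For Plk2 they were Lif, an interleukin 6 family cytokine (r = 0.991, Spearman's rho = 0.771), Rbm12, an RNA-binding protein gene (0.986, 0.759), and Rell1 (0.985, 0.943; r = 0.842 with CPM as deposited). Lif was at 13.5, 12.7 and 13.9 CPM with blebbistatin, against 18.6, 22.0 and 22.3 CPM with DMSO. Both genes were lowest among DMSO libraries in replicate 1. Within the blebbistatin group Lif was lowest in replicate 2, where Plk2 was highest, so the r of Lif also follows the split of the groups. Rbm12 was listed at 0 in all 3 blebbistatin libraries, and its r follows the split of the groups. Only 12 genes had an r above 0.95 with Plk2.

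For Plk3 the closest were Csrnp1, a nuclear protein gene of the immediate early kind (r = 0.992, rho = 1), C2cd2l (0.984, 0.829) and Pim3, a serine and threonine kinase gene (0.977, 0.943). For Gadd45g they were Ccl2 and Cxcl1, both chemokine genes, and Nppb, the B-type natriuretic peptide gene, with r = 0.999, 0.998 and 0.995. Ccl2 was at 142, 103.5 and 117 CPM with blebbistatin, against 72.4, 146 and 196 CPM with DMSO, and 71 genes had an r above 0.95 with Gadd45g. Gadd45a and Gadd45b had far more company. With Gadd45a 917 genes (8.04%) had an r above 0.95, led by Ost4, a subunit of the oligosaccharyltransferase, Romo1, a mitochondrial membrane protein gene, and Pfdn5, a prefoldin subunit, each at 0.998 or 0.999. With Gadd45b 586 genes (5.14%) did, led by Eed, a Polycomb subunit, Npc2, a lysosomal cholesterol carrier, and Pdzd11.

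Neither of the other polo-like kinase genes tested passed the threshold. Plk1, the mitotic kinase, was at 46.1, 49.8 and 53.9 CPM with blebbistatin, against 42.9, 51.3 and 45.0 CPM with DMSO, a log2 fold change of 0.066 ± 0.13 (SE; limma adjusted p = 0.9905; 0.014 without blebbistatin replicate 3). Plk4, the centriole kinase, was at 44.2, 49.1 and 42.1 CPM with blebbistatin, against 34.1, 47.2 and 44.0 CPM with DMSO (log2 fold change 0.081 ± 0.14, limma adjusted p = 0.9905; -0.011 without DMSO replicate 1). Both overlapped between the groups. Plk5, a member without a full kinase domain in humans, was at 0.324 CPM in blebbistatin replicate 3 and listed at 0 in the other 5 libraries. Whether Plk2 differed from Plk1 or Plk4 in its change was not tested.

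None of 8 genes for proteins that bind GADD45 passed the limma adjusted p of 0.05, and 0 had an unadjusted p under 0.05. Their log2 fold changes ran from -0.18 to 0.29, with a median of 0.052 (-0.0093 without DMSO replicate 1), where the median of all genes tested was 0.00074. Map3k4, the kinase that GADD45 proteins activate, was at 32.0, 40.3 and 42.3 CPM with blebbistatin, against 46.7, 39.8 and 37.0 CPM with DMSO (log2 fold change -0.15 ± 0.18). Its value was -0.0094 without DMSO replicate 1 and -0.019 without blebbistatin replicate 1. Cdkn1a, which encodes the cell cycle inhibitor p21, was at 75.2, 57.6 and 76.3 CPM with blebbistatin, against 74.2, 66.3 and 82.9 CPM with DMSO (-0.14 ± 0.16; -0.022 without blebbistatin replicate 2). Map2k7, a JNK kinase that Gadd45b binds and blocks, had a value of -0.18 ± 0.14 (-0.11 without DMSO replicate 1) and Gadd45gip1, a mitochondrial protein that binds GADD45, one of 0.11 ± 0.12 (0.074 without DMSO replicate 1). Over 22 tested genes of the p38 and JNK cascade, 0 passed in either direction (limma; 0 at an unadjusted p under 0.05). Of their values 14 were negative and 8 positive, where 49.9% of all genes tested had a negative value. Their median was -0.036. That median was 0.012 without DMSO replicate 1 and -0.13 without DMSO replicate 3. Map3k1, an upstream JNK kinase, had the highest, at 0.86 ± 0.66. It was at 8.26, 13.2 and 10.98 CPM with blebbistatin, against 1.55, 11.4 and 9.96 CPM with DMSO, and without DMSO replicate 1 the value was 0.0038.

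In the DNA damage checkpoint list limma called 0 of 22 tested genes (0 at an unadjusted p under 0.05). The median log2 fold change was -0.042, and it was 0.046 without DMSO replicate 1. The groups did not overlap for 1 of the 22, higher with blebbistatin, where 3.14% of all genes lay that way. Rad9a, part of the 9-1-1 clamp, had a value of 0.34 ± 0.16.

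The other growth arrest and DNA damage genes belong to the integrated stress response, in which phosphorylated eIF2-alpha favours Atf4 translation. Limma called 0 of 16 genes of this list. At an unadjusted p under 0.05, 2 were higher and 0 lower, where 0.737% and 0.77% of all genes were. Of the 16 values 12 were positive, where 7623 of the 15204 genes tested had a positive value. The median of 0.085 was -0.013 without DMSO replicate 1. Ddit4, an inhibitor of mTORC1, was at 47.8, 43.0 and 51.6 CPM with blebbistatin, against 16.7, 30.8 and 33.3 CPM with DMSO, with no overlap (log2 fold change 0.83 ± 0.23, limma adjusted p = 0.9905; 0.57 without DMSO replicate 1). Cebpb, a leucine zipper transcription factor gene, was at 83.4, 97.6 and 124.6 CPM with blebbistatin, against 50.7, 79.3 and 70.1 CPM with DMSO, again with no overlap (0.57 ± 0.20, limma adjusted p = 0.9905). All blebbistatin libraries lay above all DMSO libraries for these 2 genes of the 16 and below them for 1, where 3.14% and 2.97% of all genes did so. Ddit3, the GADD153 or CHOP gene, was at 32.4, 18.5 and 26.2 CPM with blebbistatin, against 7.41, 18.7 and 28.0 CPM with DMSO. Its value of 0.63 ± 0.43 was 0.14 without DMSO replicate 1. Ppp1r15a, the GADD34 phosphatase subunit gene, was at 84.9, 56.3 and 69.1 CPM with blebbistatin, against 38.6, 76.8 and 100.02 CPM with DMSO (0.010 ± 0.31; -0.34 without DMSO replicate 1). Ddit3 and Ppp1r15a were lowest in DMSO replicate 1 and highest among DMSO libraries in replicate 3, as the GADD45 genes were. Plk3 had that order too. So did the ribosomal protein sums, so the order is not particular to stress genes.

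**Figure D4:**
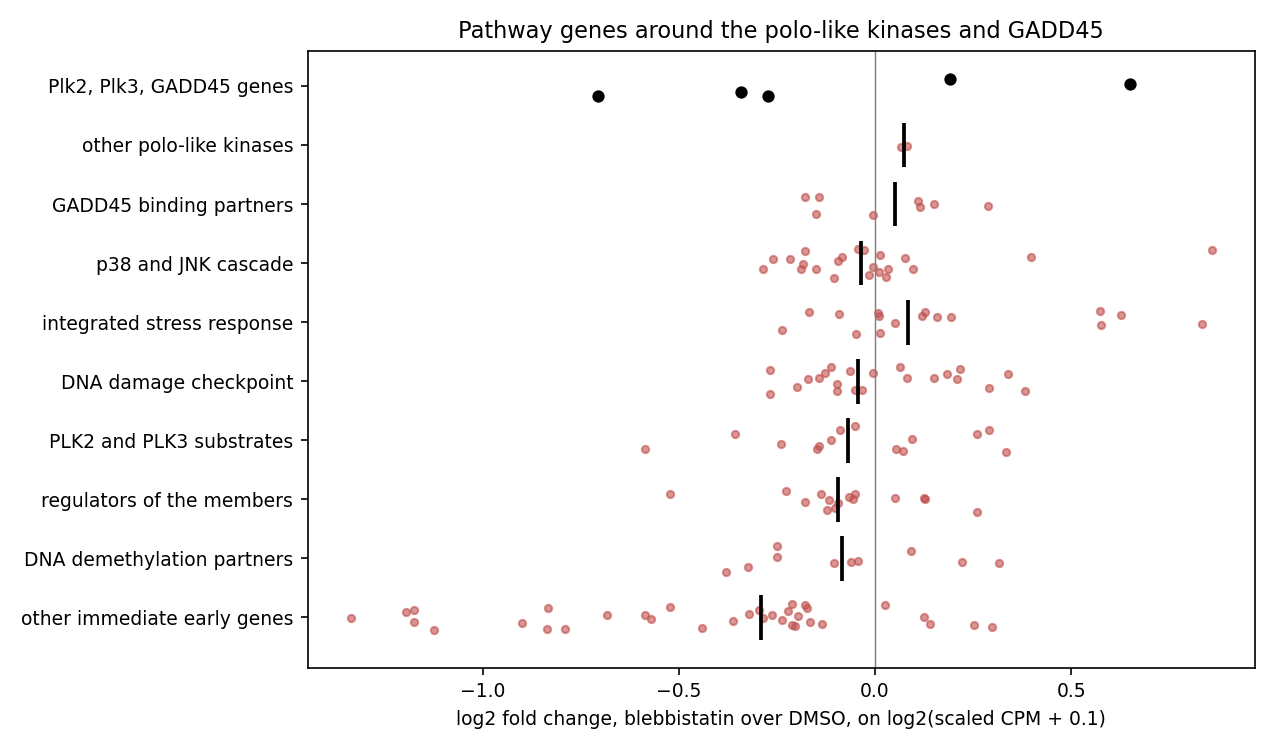
Log2 fold change, blebbistatin over DMSO, of the 5 genes (black, top row) and of every tested gene in 9 lists (red points; the black bar is the list median). The list medians lie between -0.29 for other immediate early genes and 0.085 for the integrated stress response.

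Genes for proteins that PLK2 and PLK3 act on, or that act on the 5 genes, are given next. Of 14 tested genes for substrates of PLK2 and PLK3, limma called 0, with 0 higher and 1 lower at an unadjusted p under 0.05, and the median log2 fold change was -0.070 (-0.00059 without DMSO replicate 1). The 1 was Jun, an AP-1 subunit that PLK3 phosphorylates in human cells, at 78.2, 92.6 and 100.7 CPM with blebbistatin, against 121, 137 and 136 CPM with DMSO (-0.59 ± 0.14, limma adjusted p = 0.9905). Of 15 tested genes for transcription factors known to act on the 5, limma called 0 (median -0.094; 0.011 without DMSO replicate 1). Here too 0 were higher and 1 lower at an unadjusted p under 0.05, against the same 0.737% and 0.77% of all genes. That 1 was Egr1, a zinc finger factor gene, at 264, 371 and 363 CPM with blebbistatin, against 461, 498 and 422 CPM with DMSO (-0.52 ± 0.18, limma adjusted p = 0.9905). Srf, the serum response factor gene, had a value of -0.18 ± 0.12. A gene in several lists counts in each, and Jun, Egr1 and Srf are also among the other immediate early genes below.

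Of 10 tested genes for DNA demethylation partners, limma called 0 (0 at an unadjusted p under 0.05). The median was -0.084, and it was -0.15 without DMSO replicate 2 and -0.042 with CPM as deposited. Tet2 was at 49.9, 52.3 and 52.2 CPM with blebbistatin, against 61.5, 59.3 and 57.5 CPM with DMSO (-0.25 ± 0.12), and Tet3 had a value of -0.32 ± 0.17 (-0.16 without DMSO replicate 1); both encode enzymes that oxidise 5-methylcytosine. Among 34 other immediate early genes 29 values were negative and 5 positive, where 49.9% of all genes tested had a negative value. Their median was -0.29 (-0.47 without DMSO replicate 1). Limma called 0 of them (1, Fos, without DMSO replicate 1), with 0 higher and 12 lower at an unadjusted p under 0.05, where 0.77% of all genes were lower. The 12 include Jun and Egr1, given above. All blebbistatin libraries lay below all DMSO libraries for 14 of the 34 and above them for 1, where 2.97% and 3.14% of all genes did so. This list was chosen with earlier results of these data known. Fos and Egr2 had the lowest p, with limma adjusted p = 0.058 and 0.346; their log2 fold changes of -1.34 ± 0.13 and -1.17 ± 0.17 were larger in size than that of Plk2, a difference that was not tested.

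The nearest neighbours of the 5 genes in the RefSeq annotation had the following values. Gng12 and Serbp1 beside Gadd45a had log2 fold changes of 0.0023 ± 0.13 and -0.028 ± 0.14. Lmnb2, the lamin B2 gene beside Gadd45b, had 0.18 ± 0.27, Sema4d beside Gadd45g -0.0058 ± 0.17 and Btbd19 beside Plk3 0.066 ± 0.14 (limma adjusted p of 0.9905 to 0.9985 for the 5). Gng7, on the other side of Gadd45b, was at 0.356, 0.316 and 0.227 CPM with blebbistatin and at 0.130 CPM in DMSO replicate 3, and was listed at 0 in DMSO replicates 1 and 2. Gapt beside Plk2 held at most 0.0648 CPM in any library.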

How the data were processed

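RNA of 3 blebbistatin and 3 DMSO libraries was analysed. The deposited table, named as counts, holds CPM made by the authors: each column has the same total. Tools listed by the submitters' processing notes, without roles, include StringTie 1.3.4, HISAT2 2.1.0 and edgeR 3.20.9, and the build listed is rn6; the annotation, the strand setting and the way reads were counted are not given in the sources used here. Of values under 1.5 CPM, 97.2 to 97.6% were whole multiples (within 0.02) of a step, and 33.8 to 37.1% of those up to 40 steps were multiples of 4 steps, where 25% would be even. A step is therefore not shown to be a read, no reads were recovered and the planned count test was not run.

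CPM were divided by TMM factors (0.923 to 1.03; computed without weights, trims 0.3 and 0.05). Genes with at least 0.162 CPM (10 median steps) in at least 3 libraries, 15204 of 19425 above 0, were tested with limma 3.58.1 in R 4.3.3 (trend and robust settings, two-sided) on log2(scaled CPM + 0.1), with Benjamini-Hochberg adjustment over all of them. Fold changes are on that scale, and those of low genes are understated. Single-library values are unscaled deposited CPM, and means ± SD are of scaled CPM. The filter, scaling and limma fit were run on simulated data with noise independent between genes and libraries. The simulation held no library that stands apart as DMSO replicate 1 does, and the other steps were not simulated.

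The members and lists were chosen with earlier results of these data known, and the motifs after the promoters had been read. Named genes are the 5 members, in each list those past the threshold or else the 2 with the lowest p, the 3 highest correlations per member among RefSeq-named genes with a mean of at least 1 CPM and 8 fixed genes, of which some named by these rules, and 1 list, are not reported here; immediate neighbours and overlapping genes were added later. List genes were matched by symbol or RefSeq synonym (17134 and 1820 names of the table), and all 5 promoters were matched. The lowest SD of log2 differences between any pair of libraries was 0.170, over 10029 genes above 5 CPM, and no pair of columns was identical. That pair, blebbistatin replicate 1 and DMSO replicate 3, came from different groups. Within a group the lowest SD was 0.247, between blebbistatin replicates 2 and 3. Genes that overlap or resemble others are uncertain. Alternatives covered scaling, filter, pseudocount, a replicate block and each left-out library.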

Additional observations from a re-analysis of the deposited data

How the results depend on the processing

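Over all genes, limma's 3 calls (1 higher, 2 lower) gave 0 higher without a filter, with a pseudocount of 0.5 or 1 CPM and with the replicate block; other scalings and a filter of 1 CPM left the counts at 3, 1 and 2. With 1 library left out at a time limma called 3 to 6 genes, 0 to 4 higher and 2 to 3 lower, with 6 without DMSO replicate 1 and 6 without DMSO replicate 3. The log2 fold changes of the 5 genes ran from -0.754 to -0.674 (Plk2), -0.602 to -0.159 (Plk3), -0.201 to 0.523 (Gadd45a), 0.217 to 0.987 (Gadd45b) and -1.13 to 0.375 (Gadd45g); Gadd45a changed sign without DMSO replicate 1 and Gadd45g without DMSO replicate 3. Of the 5 genes, 1 had all blebbistatin libraries below all DMSO libraries, where 2.97% of all genes did so. Without DMSO replicate 1 it was 3 of the 5, where 6.05% of all genes did so. The count of other immediate early genes called ran from 0 to 1 (Fos, without DMSO replicate 1), and those of the other 8 lists reported stayed at 0. Plk4 ran from -0.0111 to 0.157 and Ppp1r15a from -0.336 to 0.281. Of 184 values of other named genes under the settings that kept all libraries, 184 kept their sign and side of the threshold. Of 138 such values with 1 library left out, 3 changed sign and 1 (Fos, without DMSO replicate 1) came to pass the threshold. Counting also the 1 list not reported here, list medians moved by more than the spread in 2 of 80 values with all libraries kept. With 1 library left out they did so in 8 of 60. Of 105 correlations with all libraries kept 1 moved by over 0.1 (Plk2 with Rell1, 0.842 with CPM as deposited), and of 90 with 1 left out 0 did. With the replicate block the fold changes of the 5 genes were the same by construction, and 0 of them passed. Deviations of same-numbered libraries correlated at -0.289, 0.0542 and -0.0921, so the numbers are not taken to pair the samples. Except for the block, the cause of these shifts was not tested. The depth in reads is not known, so no counting error is given for low genes. The count test planned as an alternative was not run, since no reads were recovered.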
